A study of Mus musculus with 2 samples.

Results

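Genes of the sodium pump are described here in regenerating mouse muscle with and without Mef2a. They are the pump's beta subunit genes Atp1b1, Atp1b2, Atp1b3 and Atp1b4 and the regulator genes Fxyd1, Fxyd5 and Fxyd6, 7 of the 19938 genes with a probe set of their own. The members were chosen by gene family with their values in these arrays already known, and Atp1b4 was among the genes that stood out, so the differences of the 7 are given as descriptions with no test. Of the alpha subunit genes, which encode the catalytic chain, Atp1a4 is given below and the others were not analysed here.

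The wild type group (Mef2a +/+) and the knockout group (Mef2a -/-) were adult mice on a mixed 129Sv/C57BL6 background, aged 2 to 4 months and of both sexes. In every animal the right tibialis anterior, a fast muscle of the shin, was injected with 50 µl of 10 µM cardiotoxin, a venom peptide that destroys fibres, and was taken 7 days later, so both groups are injured muscle and neither is at rest. The labels give the knockout as Mef2a -/-, with no promoter or cell type that would restrict it, and leave the deleted stretch of Mef2a unnamed. RNA of 5 mice per genotype was pooled and each pool was hybridised to 1 array, so there is 1 value per gene and genotype, without replicate error.

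The Na,K-ATPase pumps sodium out of the cell and potassium in, and in a muscle fibre it restores the gradients that each action potential runs down. An alpha chain carries out the transport, a beta chain is needed for the alpha chain to fold and reach the membrane, and small single-span FXYD proteins bind the complex and tune its affinity and rate. Atp1b4 is the exception among the beta chains: in placental mammals its protein is found mainly in the inner nuclear membrane of muscle cells, where it has been reported to bind the transcriptional co-regulator SNW1, and it is not thought to serve the pump. MEF2A is a transcription factor that acts in the muscle lineage but is not confined to it.

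The sequences just upstream of Atp1b4, Fxyd5 and Fxyd1 are shown because Atp1b4 had the largest difference in the lower direction, Fxyd5 the largest in the higher direction, and Fxyd1 lies near Fxyd5 in the genome yet differed the other way. Each is the 250 bases before an annotated RefSeq transcript start in GRCm38.p6, 5′ to 3′ along the gene, at chrX:38315872-38316121 on the plus strand for Atp1b4, chr7:31042332-31042581 on the minus strand for Fxyd5 and chr7:31054854-31055103 on the minus strand for Fxyd1. Capitals mark matches, on either strand, to the E-box CANNTG, to CCAAT and to GAGGAA, a core bound by PU.1 and other ETS factors.
Atp1b4: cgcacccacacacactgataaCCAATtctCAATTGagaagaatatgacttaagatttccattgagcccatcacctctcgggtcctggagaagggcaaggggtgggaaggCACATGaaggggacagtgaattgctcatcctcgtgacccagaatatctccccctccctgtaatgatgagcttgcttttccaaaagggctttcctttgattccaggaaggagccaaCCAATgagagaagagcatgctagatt
Fxyd5: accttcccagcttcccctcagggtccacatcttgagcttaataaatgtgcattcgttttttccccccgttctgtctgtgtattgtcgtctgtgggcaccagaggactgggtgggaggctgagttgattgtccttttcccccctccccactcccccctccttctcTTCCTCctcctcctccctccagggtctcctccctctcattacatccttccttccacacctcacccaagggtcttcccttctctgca
Fxyd1: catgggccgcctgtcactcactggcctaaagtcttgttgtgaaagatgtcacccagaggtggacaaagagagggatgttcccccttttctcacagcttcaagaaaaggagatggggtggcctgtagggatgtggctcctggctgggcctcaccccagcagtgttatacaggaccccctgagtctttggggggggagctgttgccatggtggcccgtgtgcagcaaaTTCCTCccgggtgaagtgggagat

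The Atp1b4 window held 2 E-boxes, CAATTG and CACATG, which start 221 and 141 bases before the transcript start, and 2 CCAAT elements, at 229 and 26 bases. The Fxyd5 and Fxyd1 windows held no E-box and no CCAAT, while that of Fxyd6, not shown, held 1 of each. Fxyd5 and Fxyd1 each held 1 match to GAGGAA, read as TTCCTC on the strand shown, at 86 bases in Fxyd5 and 24 bases in Fxyd1. Of the 7 windows of the 6 members in the table (Atp1b3 has 2), 4 held an E-box, 3 a CCAAT and 4 a GAGGAA, both Atp1b3 windows among the last. Over all 32851 RefSeq windows of this length, 66.2% held an E-box, 33.8% a CCAAT and 23.3% a GAGGAA. The consensus MEF2 motif was searched on both strands as well and matched none of the 7 windows, against 2.92% of all windows. TATAAA matched none of the 7 either, against 12.4% of all. GC content was 48.4% in the Atp1b4 window, 55.6% in Fxyd5 and 57.2% in Fxyd1, with 3 CpG dinucleotides in each, beside a median of 52.4% and 6 CpG over all windows. The Atp1b1 and Atp1b3 windows were richer in both: 70.4% GC with 24 CpG for Atp1b1, and 73.6% with 24 and 76.8% with 35 CpG for the 2 annotated starts of Atp1b3. The Fxyd6 window had 50.4% GC and 5 CpG. These matches describe letters within 250 bases and do not show that a factor binds, or does not bind, at these genes.

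Values below are log2 RMA values, in which 1 unit is a 2-fold difference, and differences are labelled knockout minus wild type. A gene was called measurable when its higher value reached a floor of 4.40, the median over the whole table, and 11787 genes did. All 7 members did in both pools, with values from 7.58 to 9.31. Values of different probe sets were not read as relative amounts of RNA, since probes differ in brightness for the same amount of RNA. The summed signals of marker lists and the distances between pairs of values below do combine different probe sets. In a sum the brightest probe sets weigh most. Mef2a itself read 8.92 in wild type and 9.06 in the labelled knockout pool. Its probe set may lie outside the deleted part and therefore does not check the labels, so that every direction given here rests on the labels alone.

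**Figure D1:**
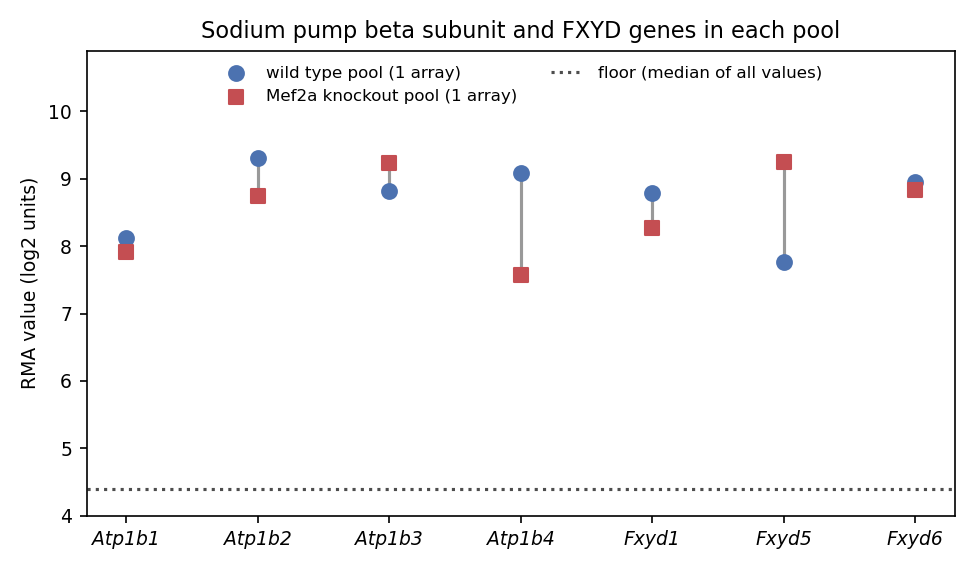
RMA values (log2 units, vertical axis) of the 7 genes in the wild type pool (circles) and the labelled knockout pool (squares), 1 array each, joined by a grey line, with the floor of 4.40 dotted. Atp1b4 lies at 9.08 in wild type and 7.58 in the labelled knockout pool and Fxyd5 at 7.76 and 9.25, while the pools differ by less than 1.5-fold in the other 5 genes.

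Atp1b4 had the largest negative difference of the 7 members. It read 9.08 in wild type and 7.58 in the labelled knockout pool, and was thus 2.84-fold lower (-1.50). Among the 11787 measurable genes it ranked 1 from the lowest end. In size its difference exceeded those of 98.8% of the 500 measurable genes of nearest mean value. Both values lay well above the floor.

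The other beta chains differed by much less, and not all in the same direction. Atp1b2, the adhesion molecule on glia that is also the beta chain of fast muscle fibres, read 9.31 in wild type and 8.75 in the labelled knockout pool. That is 1.48-fold lower (-0.56), just short of the 1.5-fold limit of 0.58 log2 units, and larger in size than 86.2% of genes of like mean. With differences centred on the median of measurable genes, or with the trend on mean level removed, it lay past that limit, at -0.59 in both cases. Atp1b1, the most widely expressed beta chain, read 8.12 and 7.91 in the same order, a difference of -0.20 that was larger in size than those of 55.8% of genes of like mean.

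Atp1b3 was the only beta chain gene of the 4 that was higher in the labelled knockout pool. This chain is found in many cell types, blood cells among them. Its main probe set read 8.82 in wild type and 9.23 in the labelled knockout pool, 1.34-fold higher (0.42). A second Atp1b3 probe set read 8.11 and 8.53, again a difference of 0.42. Both probe sets list the same reference transcript, and their likeness is not that of separate samples. Where the probes of the second match in the genome was not examined. Relative to each other, Atp1b3 and Atp1b2 shifted by 0.98 log2 units, a 1.98-fold change in their ratio, and Atp1b3 and Atp1b4 by 1.92.

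Fxyd5 stood at the other end of the group. It encodes dysadherin, a membrane glycoprotein that raises pump activity and weakens cell adhesion. It read 7.76 in wild type and 9.25 in the labelled knockout pool, 2.81-fold higher (1.49), and ranked 49 from the highest end of the measurable genes. The size of this difference exceeded those of 99.0% of genes of like mean. It was nearly equal in size to that of Atp1b4 and opposite to it, the ratio of the pair shifting by 7.99-fold.

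The other FXYD members were lower, by less than 1.5-fold. Fxyd1 encodes phospholemman, the FXYD protein of heart and skeletal muscle, which holds the pump back until it is phosphorylated. It read 8.80 in wild type and 8.26 in the labelled knockout pool, 1.45-fold lower (-0.53), larger in size than 84.6% of genes of like mean. Fxyd6, phosphohippolin, best known from brain, read 8.95 and 8.83, a difference of -0.12, and 29.0% of genes of like mean differed by less. Of the 7 members it had the smallest difference.

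**Figure D2:**
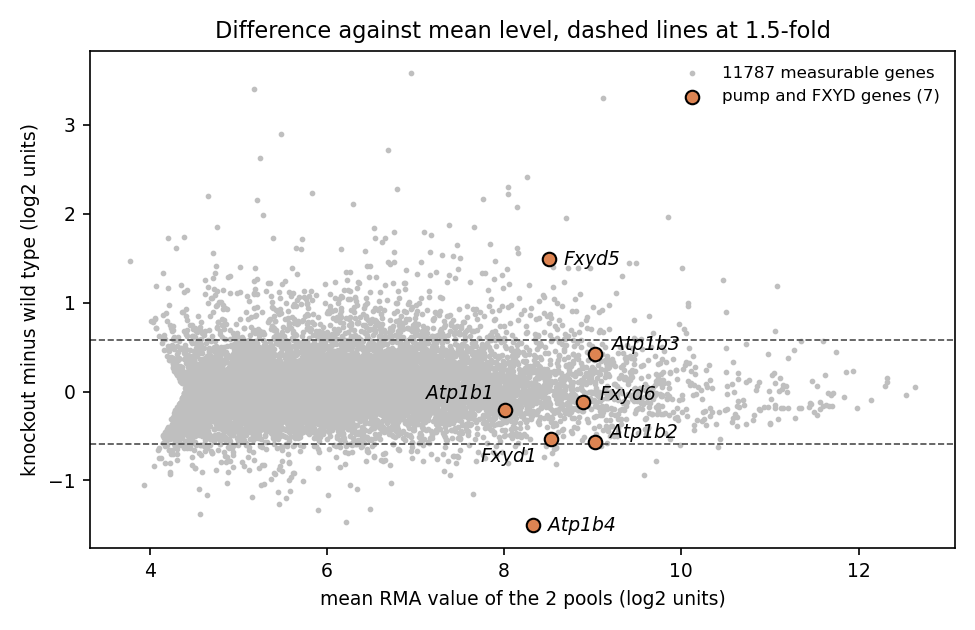
Difference between the pools (labelled knockout minus wild type, log2 units) against the mean RMA value of the 2 pools for 11787 measurable genes (grey) and the 7 pump and FXYD genes (orange), with dashed lines at 1.5-fold. Atp1b4 at -1.50 is the lowest point of the plot, Fxyd5 lies at 1.49, and Atp1b2 and Fxyd1 lie just inside the lower line.

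In all, 5 of the 7 members were lower and 2 higher in the labelled knockout pool, where 44.5% of all measurable genes were lower. The members' median difference was -0.20, beside 0.03 over all measurable genes. One member was at least 1.5-fold lower and 1 at least 1.5-fold higher, where 1.90% of measurable genes were lower and 6.45% higher by that much. The same 2 members were past 2-fold, beside 0.187% of measurable genes at least 2-fold lower and 1.70% at least 2-fold higher. Since the members were chosen with these values known, no meaning attaches to the comparison of the shares. The next in size after Fxyd5 was Atp1b2 at -0.56, so the gap between the pair past the limit and the other 5 was wide, and no member lay just outside 2-fold.

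The FXYD genes of chromosome 7 lie side by side, and those that were measurable did not all differ in the same direction. In the GRCm38.p6 RefSeq table the order of protein-coding genes is Fxyd5, Fxyd7, Fxyd1, Lgi4 and Fxyd3. Fxyd7, a regulator known mainly from neurons, read 5.45 in wild type and 4.99 in the labelled knockout pool, 1.38-fold lower (-0.46). Thus Fxyd5 was higher and the next 2 genes lower. Lgi4, a secreted factor of Schwann cells, read 4.35 and 4.33, and Fxyd3 read 4.08 in both pools, each below the floor. On the far side of Fxyd5, Fam187b was below the floor (2.64 and 2.34), and Lsr, a lipoprotein receptor gene, read 4.22 and 4.41.

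**Figure D3:**
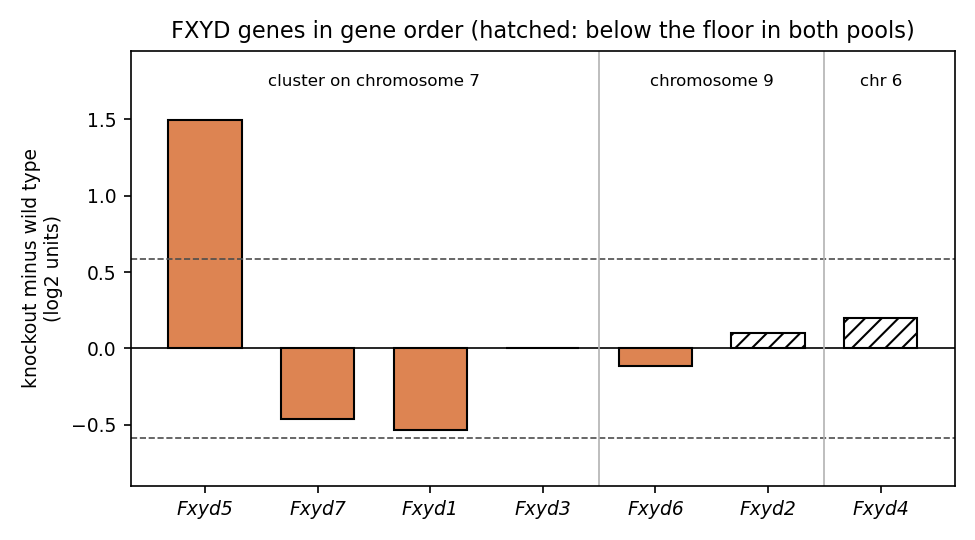
Difference between the pools (labelled knockout minus wild type, log2 units) for 7 FXYD genes, in genomic order within each chromosome, with dashed lines at 1.5-fold and hatched bars where both values were below the floor. Fxyd5 reaches 1.49 while its neighbours Fxyd7 and Fxyd1 lie at -0.46 and -0.53, and Fxyd3 has no visible bar since its values were equal.

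Atp1b4 lies on the X chromosome, and none of the neighbours given here had a difference of its size. Lamp2, a lysosomal membrane protein gene on one side, read 8.44 in wild type and 8.92 in the labelled knockout pool. Tmem255a on the other side read 4.55 and 4.33 (-0.22), lower like Atp1b4 but with both values close to the floor of 4.40. The next genes outward, Cul4b and Zbtb33, were at 0.23 and 0.30. Both sexes were used, and their shares in each pool are not given in the labels. Xist, the RNA that silences 1 X chromosome in females, read 6.72 in wild type and 8.03 in the labelled knockout pool, while the Y-linked Eif2s3y read 6.83 and 6.52 and Uty 6.23 and 6.29. The part of sex in the Atp1b4 difference was not tested.

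Markers of the cell types in the muscle also differed between the pools. All 10 skeletal muscle fibre markers were measurable, with values from 10.02 to 12.56, so the defining genes of the labelled tissue were present. Of them 9 were lower in the labelled knockout pool, where 44.5% of all measurable genes were lower. The fibre markers had a median of -0.17 and differences from -0.53 (Mb, myoglobin) to 0.07 (Des, desmin). Most of these were small: over all measurable genes the median size of a difference, in either direction, was 0.19. With the trend on mean level removed, Acta1 moved from -0.04 to 0.02. The summed signal of the fibre markers was 14.96 log2 units in wild type and 14.81 in the labelled knockout pool. Atp1b4, at -1.50, lay below all 10, and so did Atp1b2 at -0.56. Fxyd1 shared its difference of -0.53 with Mb to 2 decimals. Atp1b1 (-0.20) lay within the range of the fibre markers, with 3 below it and 7 above. In bulk tissue fewer cells of a type and less RNA per cell cannot be told apart.

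All 10 macrophage markers were at least 1.5-fold higher in the labelled knockout pool, beside 6.45% of all measurable genes. The macrophage markers had a median of 1.09 and a range from 0.80 (C1qb) to 1.80 (Itgam). Their summed signal was 12.04 in wild type and 13.20 in the labelled knockout pool. Fxyd5 at 1.49 lay above 9 of the 10, and Atp1b3 at 0.42 lay below all of them but above all 10 fibre markers. Of 5 neutrophil markers only Csf3r reached the floor (4.78 and 5.16), and the summed signal was 5.86 and 6.23. The 6 fibroblast markers had a median of 0.08, with a summed signal of 13.09 and 13.23, and the 5 endothelial markers a median of -0.05, with 9.30 and 9.22. The 4 mural markers had a median of 0.18 and sums of 9.53 and 9.83. Of them 3 were higher, Pdgfrb by 1.57-fold, and Myh11 was lower (-0.21). Among satellite cell markers, 3 of 4 reached the floor, with a median of -0.23 over these 3 and sums of 7.80 and 7.52 over the 4. Chodl, one of them, was 1.88-fold lower (-0.91), the only marker of the 8 lists at the floor that was at least 1.5-fold lower. Of the other satellite cell markers that reached the floor, Pax7 was lower (-0.23) and Myf5 higher (0.10). Of the 4 Schwann markers used, Mbp (4.48 and 4.95) and S100b (4.60 and 4.65) reached it and Sox10 and Mag did not, and their sums were 6.32 and 6.43. The part of these cell types in the differences of the pump genes was not tested.

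**Figure D4:**
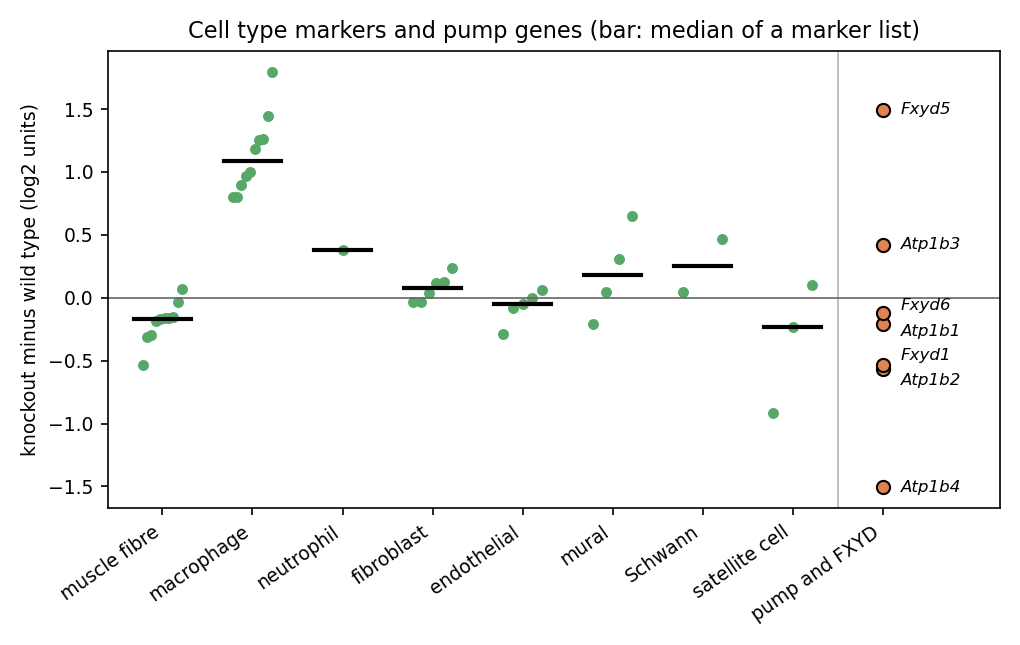
Difference between the pools (labelled knockout minus wild type, log2 units) for the measurable markers of 8 cell types (green points, with a black bar at the median of each list) and for the 7 pump and FXYD genes (orange). Fxyd5 lies within the span of the macrophage markers, whose median is 1.09, and Atp1b4 lies below the fibre markers, whose median is -0.17.

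Of 11 other genes of the pump family and its relatives that were listed, 8 were used here, and of these only Fxyd7 reached the floor. The 3 others of the list were alpha chain genes and were not analysed here, so nothing is said of their signal. Atp1a4, the alpha chain of sperm, read 3.99 in wild type and 3.75 in the labelled knockout pool. Fxyd2, the gamma subunit of kidney, read 3.99 and 4.09, and Fxyd4, a regulator of kidney and colon, 3.27 and 3.47. The related proton pumps of stomach and colon were below the floor too: Atp4a read 3.76 and 3.52, Atp4b 4.33 and 4.23, and Atp12a 2.05 in both pools. None of the 8 was past 1.5-fold.

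Ion channels and carriers that work with the sodium and potassium gradients differed both ways. Of 14 listed, 11 were used here and all reached the floor, 7 lower and 4 higher, where 44.5% of all measurable genes were lower. Their median difference was -0.26, beside 0.03 over all measurable genes. Clcn1, the chloride channel that steadies the fibre membrane, was 1.52-fold lower (6.58 in wild type and 5.98 in the labelled knockout pool). Slc8a1, a sodium-calcium exchanger that runs on the gradient the pump builds, was 1.52-fold higher (4.70 and 5.30), but with the mean of its 2 probe sets or with centred differences it was not past 1.5-fold. Those 2 were the only ones of the 11 past the limit, or 1 each way, beside 1.90% of measurable genes lower and 6.45% higher. Abcc9, a subunit of the muscle ATP-sensitive potassium channel also found in mural cells, was at -0.58, just inside it.

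Regulators and anchors of the pump showed no common direction. Of 14 listed, 13 were used and measurable, 7 higher and 6 lower, where 44.5% of all measurable genes were lower. The median of the 13 was 0.01, near that of all measurable genes. Only Cav3, the caveolin of the muscle membrane, was past 1.5-fold, beside 1.90% of measurable genes lower and 6.45% higher. Cav3 read 7.79 in wild type and 7.06 in the labelled knockout pool, 1.66-fold lower. Among the others the size was greatest for Ank2, an ankyrin that ties membrane proteins to the cytoskeleton, at -0.58.

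Of 3 genes linked to the Atp1b4 protein, its reported partner Snw1 and the regulatory genes Myod1 and Smad7, each differed by less than 1.5-fold. Snw1 read 6.63 in wild type and 6.40 in the labelled knockout pool (-0.23). Myod1, the myogenic factor, read 8.64 and 8.44 (-0.21). Smad7, an inhibitor of TGF-beta signalling, read 5.35 and 5.85 (0.50). Atp1b4 thus differed from Snw1 and Myod1 in the size of its difference and from Smad7 also in its direction.

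No other measurable gene had a pair of values close to that of Atp1b4. This follows in part from its rank of 1 from the lowest end. Only 22 measurable genes were at least 2-fold lower, while 200 were at least 2-fold higher. Over the 2 arrays the nearest measurable genes were Art1, an ADP-ribosyltransferase (8.81 in wild type and 8.08 in the labelled knockout pool, at a distance of 0.57 log2 units), Hk2, a hexokinase (8.57 and 7.89, at 0.60), and Asb2, a ubiquitin ligase adaptor (8.99 and 8.18, at 0.61). Each was lower by no more than 1.75-fold. The pair of values of Fxyd5 had close neighbours: Mmp12, the macrophage elastase, read 7.77 and 9.25, at a distance of 0.013, Tnc, tenascin C, 7.85 and 9.26, at 0.089, and Dhrs3, a retinal reductase, 7.96 and 9.14, at 0.23. With 2 arrays this likeness is one of numbers and describes no shared pattern across conditions.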

How the data were processed

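Per the submitters' processing notes, the authors obtained the deposited log2 values by RMA, run in Affymetrix Expression Console. For its version, its settings and the genome build nothing was given in the sources used here. RMA makes the arrays' distributions alike (sorted values differ by at most 0.139), so a change shared by most genes cannot be seen. Of 35557 probe sets, 21789 had 1 gene symbol in the platform annotation, 1621 several and 12147 none, and only the first kind was used. The probe set of highest mean was taken for each gene; of the members, only Atp1b3 had 2.

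Differences, counts past 1.5-fold and 2-fold and ranks were computed in Python 3.11.15 (pandas 2.3.3, numpy 2.4.6), and the loess trend with statsmodels 0.14.6 (span 0.3), tested on simulated data. With 1 array per genotype there is no test and no p-value, and the number of arrays limits the precision. The members and gene lists were chosen with earlier results of these data known. Beyond the members, genes were named by list, by the 1.5-fold limit or largest size within a list, and by nearest pair of values; Abcc9, Ank2, genomic neighbours, single cell type markers and genes of sex were named after their values were seen. Promoter sequences are those of RefSeq for GRCm38.p6, matched by symbol for 6 of the 7 members. Atp1b2 was not matched.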

Additional observations from a re-analysis of the deposited data

How the results depend on the processing

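Median-centred differences, removal of the loess trend, the mean of all probe sets and the second probe set gave 16 alternative values for the members. All 16 kept their direction, and 14 their side of the 1.5-fold limit. The 2 others were those of Atp1b2, which passed it when centred (-0.59) and with the trend removed (-0.59), so that the count of lower members was 2 in place of 1 under each. With a looser limit of 0.32 log2 units, 2 members were higher and 3 lower. A 2-fold limit, no floor, a floor at the 75th percentile (6.18) and the mean of all probe sets left both counts at 1. The near-zero median of pump regulators changed sign when centred (-0.018), with the trend removed (-0.050) and with the mean of all probe sets (-0.051). Of the channels, none was past 1.5-fold higher with the mean of probe sets, centred, or with the higher floor, and 2 were lower when centred or with the trend removed, as were 2 of the regulators. No paired analysis was possible because each genotype has 1 array. The spread between mice, and between arrays, is unknown.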

Other observations

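Some genes had exactly the same value on both arrays. Fxyd3 (4.08) and Atp12a (2.05) did among the pump genes, as did the endothelial marker Tek (6.31). This held for 1961 of 35557 probe sets, for 1179 of 19938 genes (5.91%) and for 254 of 11787 measurable genes (2.15%). Such a gene is listed with a difference of 0, and none of the 7 members was among them.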
